A study of Mus musculus with 8 samples.

Results

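The immunoglobulin V genes typical of phosphatidylcholine-binding B-1 cells were examined in gonadal fat, namely the heavy chain genes Ighv11-1, Ighv11-2 and Ighv12-3 and the kappa light chain genes Igkv14-126 and Igkv4-91. They were taken by name, as 5 of the 54532 genes in the count table, and make up 3 of its 113 heavy chain V genes and 2 of its 100 kappa V genes annotated as functional. They were chosen from their lower levels in anti-BAFF Ab-treated mice of the same data, so the difference between the groups is described for them and carries no test. Bulk RNA sequencing was done on the stromal vascular fraction (SVF), the cells left after adipocytes float off a collagenase digest, from 1 gonadal fat pad of each of 8 male C57BL/6J mice. All mice were fed a high-fat diet (60% of calories from fat) for 12 weeks from an age of 6 weeks in the series' description (the study's methods name older ages), were divided by a glucose tolerance test, and were then switched to normal chow (16% of calories from fat). From the switch on they received 2 mg/kg of the anti-BAFF antibody Sandy-2 or of an IgG1k isotype control antibody (control Ab) every 2 weeks for 6 weeks, with tissue taken at week 18. The control Ab group held mice 1, 2, 6 and 9 and the anti-BAFF Ab group mice 5, 7, 8 and 10, and no untreated mice or mice kept on the high-fat diet were among the samples.

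Each B cell builds its antigen receptor by joining a V gene segment of the heavy chain locus to D and J segments and a V segment of a light chain locus to a J segment, so that a V gene is transcribed at a high level only in cells that rearranged it and their descendants. B-1 cells are self-renewing innate-like B cells of the body cavities and serosal fat that secrete natural IgM. A large share of them carries a few stereotyped receptors against phosphatidylcholine, a membrane lipid that is exposed on dying and aged cells. In mice these receptors pair VH11 (Ighv11-2) with the kappa segment Igkv14-126, and VH12 (Ighv12-3) with Igkv4-91. BAFF is a cytokine on which follicular and marginal zone B cells depend for survival, while B-1 cells are known to depend on it less.

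The heavy chain members lie on chromosome 12, on the minus strand, at chr12:113981879-113982341 (Ighv11-1), chr12:114048241-114048812 (Ighv11-2) and chr12:114366521-114366954 (Ighv12-3). The kappa members lie on chromosome 6, with Igkv14-126 on the plus strand at chr6:67896172-67896642 and Igkv4-91 on the minus strand at chr6:68768555-68769103. Coordinates are those of the count table, and the submitters' processing notes name the build mm10. The table annotates all 5 as functional V genes, whereas RefSeq's GRCm38.p6 annotation lists Igkv14-126 as a V segment pseudogene.

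The VH11 gene Ighv11-2 was lower in every anti-BAFF Ab-treated mouse than in any control. Its level, as counts scaled to a common library size with TMM factors (CPM), was 85.9, 48.9, 51.2 and 40.0 in control mice 1, 2, 6 and 9 and 4.17, 3.38, 4.18 and 3.14 in anti-BAFF Ab-treated mice 5, 7, 8 and 10. Mouse 1 was the highest control, and the lowest control was still 9.58 times the highest treated mouse. The means were 56.5 ± 20.2 and 3.72 ± 0.536 CPM (SD, n = 4 each), a log2 fold change of -3.93 (SE 0.26). In a bulk sample, fewer B cells of a kind and less of the transcript per cell cannot be told apart. The study counted cells of the gonadal SVF of this model by flow cytometry. It reported depleted B2 cells, which include marginal zone cells, and no effect on the numbers of B-1a and B-1b cells. It describes no separate count of cells that bind phosphatidylcholine.

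Ighv11-1, the other functional gene of the VH11 family, was all but absent. It had 2, 2, 0 and 2 counts in control mice 1, 2, 6 and 9 and 0 counts in all 4 anti-BAFF Ab-treated mice. These are under the floor of 3 counts per library, so no fold change is given, and it was the only member that did not pass the count filter. The counts of the family thus lay almost entirely on Ighv11-2, with 3558 counts in the control group against 6 on Ighv11-1.

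The VH12 gene Ighv12-3 was also lower in all treated mice, from a lower starting level. It had 2.85, 7.03, 3.37 and 10.6 CPM in control mice 1, 2, 6 and 9 and 0.404, 0.338, 0.261 and 0.552 CPM in treated mice 5, 7, 8 and 10. Mouse 9 was the highest control for this gene and mouse 1 the lowest, the reverse of their order for Ighv11-2. The means were 5.96 ± 3.61 and 0.389 ± 0.123 CPM (SD, n = 4), a log2 fold change of -3.91 (SE 0.50). The treated values rest on 6, 6, 4 and 10 counts, close to the floor, and the 2 other genes of the VH12 family in the table, both pseudogenes, had 0 counts.

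The kappa partner of VH11, Igkv14-126, was the most abundant of the 5. It had 144, 82.2, 97.9 and 74.8 CPM in control mice 1, 2, 6 and 9 and 9.76, 6.81, 6.72 and 7.50 CPM in treated mice 5, 7, 8 and 10. The controls stood in the same order as for Ighv11-2, with mouse 1 highest, then mice 6, 2 and 9. The means were 99.7 ± 31.0 and 7.70 ± 1.42 CPM (SD, n = 4), a log2 fold change of -3.70 (SE 0.23). Igkv4-91, the partner of VH12, had 8.99, 9.75, 4.61 and 20.6 CPM in the same controls and 0.404, 0.901, 0.783 and 1.88 CPM in the same treated mice. Mouse 9 again led the controls, as for Ighv12-3, and mouse 10 led the treated mice for both genes. Its means were 11.0 ± 6.78 and 0.991 ± 0.627 CPM (SD, n = 4), a log2 fold change of -3.44 (SE 0.55).

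The ranges of the groups did not overlap for any of the 4 members that passed the filter, while 0.952% of the 15963 genes that passed were lower without overlap. In edgeR's quasi-likelihood fit over those genes, 3 of the 4 (Ighv11-2, Ighv12-3 and Igkv14-126) were among the 9 genes lower at an adjusted p of 0.05, 0.0564% of all tested. Nothing is read from these counts, since the contrast chose the members. The median log2 fold change of all genes tested was 0.00. The 4 fold changes moved by less than the spread between mice under every scaling and with each mouse left out.

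**Figure D1:**
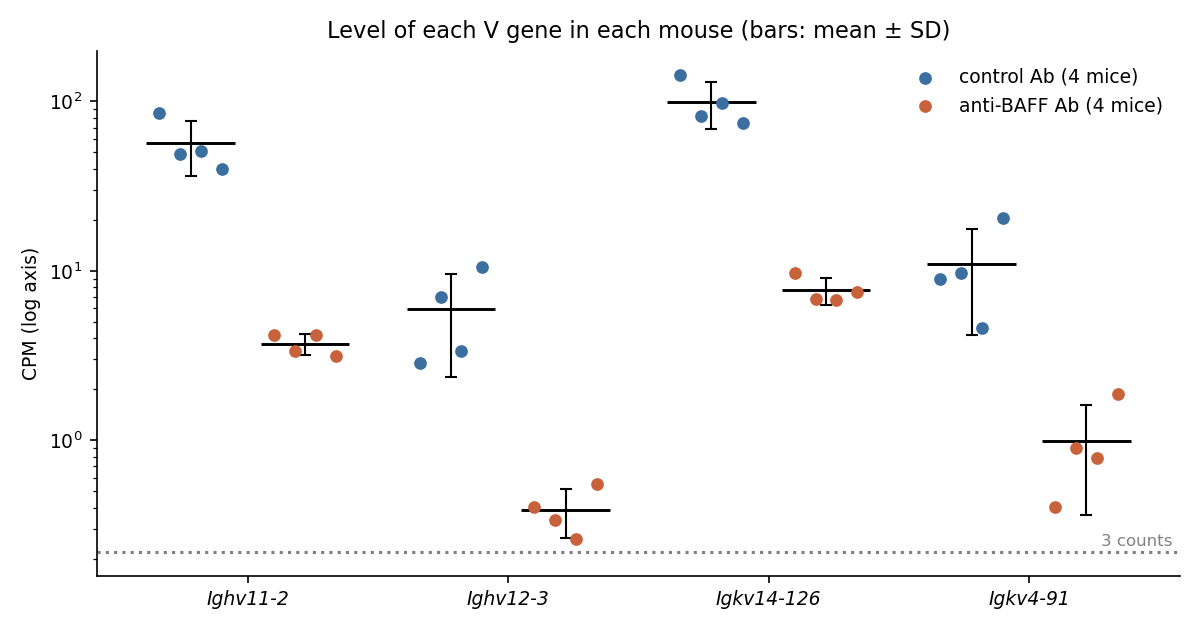
Level of Ighv11-2, Ighv12-3, Igkv14-126 and Igkv4-91 in CPM (log axis) in the SVF of 4 control Ab-treated mice (blue) and 4 anti-BAFF Ab-treated mice (orange), each point a mouse, with the mean (line) and SD (error bars); the dotted line is the level of 3 counts in the smallest library. The groups are separate for all 4 genes, and Ighv12-3 in treated mice, between 0.261 and 0.552 CPM, lies just above the dotted line.

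Per kilobase of gene, the scale on which different genes can be set side by side, the VH11 pair stood far above the VH12 pair. In control mice Igkv14-126 averaged 278 ± 86.6 CPM per kilobase and Ighv11-2 averaged 123 ± 43.8. Igkv4-91 averaged 30.7 ± 18.9 CPM per kilobase and Ighv12-3 averaged 16.9 ± 10.2 (SD, n = 4). The ranges of the 2 VH11 pair genes did not overlap with each other in control mice, 86.8 to 186 against 209 to 402, and both lay above those of the VH12 pair, while Ighv12-3, from 8.08 to 30.0, and Igkv4-91, from 12.9 to 57.4, overlapped. In treated mice the order of the 4 means was the same, with 21.5 ± 3.96, 8.06 ± 1.16, 2.77 ± 1.75 and 1.10 ± 0.349 CPM per kilobase (SD, n = 4).

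Among all functional heavy chain V genes, Ighv11-2 ranked at the top per kilobase in each of the 4 control mice. The next by mean was Ighv5-17, with 34.4 ± 32.7 CPM per kilobase and a range of 8.61 to 77.7, below the lowest control value of Ighv11-2. In the treated mice Ighv11-2 ranked 4, 2, 3 and 2 in mice 5, 7, 8 and 10, and Ighv1-53, at 12.5 ± 11.7 CPM per kilobase, had the highest mean; its range of 1.44 to 24.2 enclosed that of Ighv11-2. Igkv14-126 likewise ranked at the top of the kappa V genes in each control mouse and ranked 2, 1, 2 and 1 in treated mice 5, 7, 8 and 10. Its nearest kappa gene in both groups was Igkv3-2, with 51.6 ± 50.6 CPM per kilobase in controls and 16.4 ± 14.8 in treated mice. The V gene with the most transcript in the controls thus remained among the leading 4 of its chain in every treated mouse, at a level far lower.

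The members' share of the V gene counts of their chain was lower on average in treated mice, but the groups overlapped. The 3 heavy chain members held 32.1%, 36.5%, 29.1% and 19.8% of functional heavy chain V counts in control mice 1, 2, 6 and 9, and 10.1%, 22.2%, 8.76% and 15.8% in treated mice 5, 7, 8 and 10. Control mouse 9 lay below treated mouse 7, whose exact 95% binomial interval of 17.6% to 27.4%, from 66 of 297 counts, spans the 19.8% of mouse 9. The group means were 29.4% ± 7.03 and 14.2% ± 6.15 (SD, n = 4). The 2 kappa members held 44.8%, 39.1%, 35.5% and 24.7% of functional kappa V counts in the controls and 16.6%, 29.2%, 10.2% and 27.4% in the treated mice, with means of 36.0% ± 8.49 and 20.8% ± 9.02. Here mouse 9 lay below treated mice 7 and 10. Most of each share was the VH11 pair: Ighv12-3 held 1.03% to 4.58% of heavy chain V counts in controls and 0.515% to 2.36% in treated mice, and Igkv4-91 held 1.59% to 5.31% and 0.659% to 5.48% of kappa V counts. Intervals cover counting error only.

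**Figure D2:**
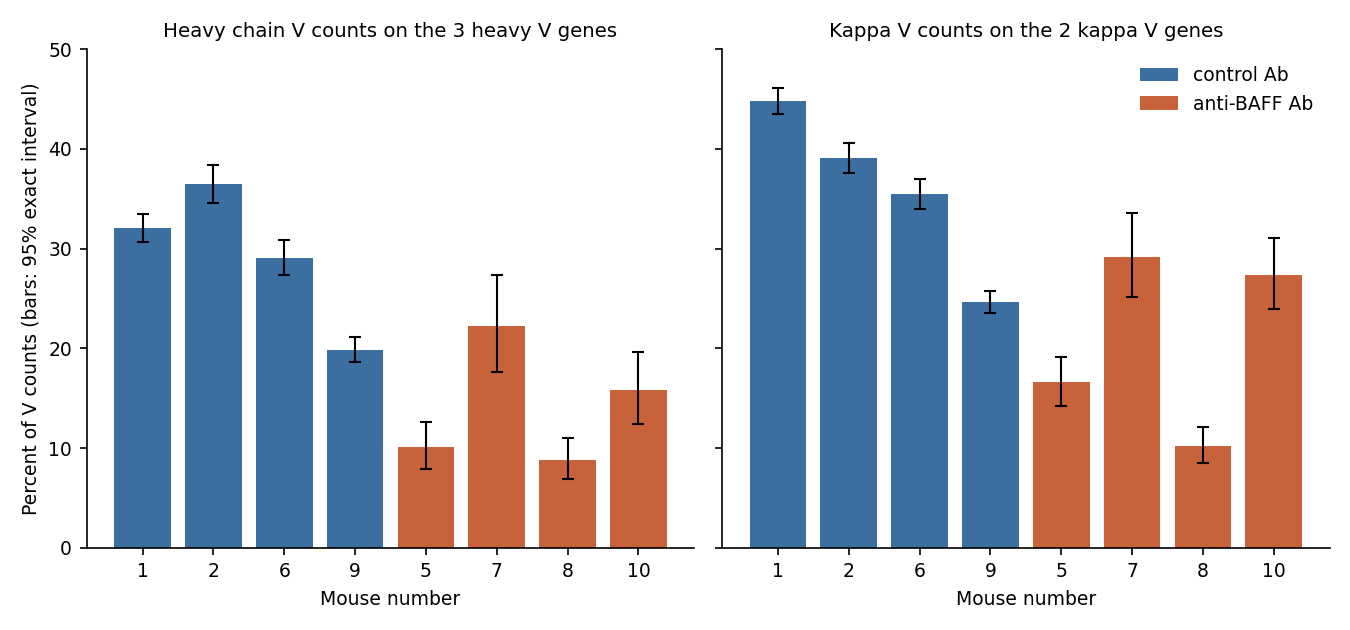
Percent of functional heavy chain V counts on Ighv11-1, Ighv11-2 and Ighv12-3 (left) and of functional kappa V counts on Igkv14-126 and Igkv4-91 (right) in each mouse, numbered below the bars, for control Ab (blue) and anti-BAFF Ab (orange); error bars are exact 95% binomial intervals. Control mouse 9 (19.8% and 24.7%) stands within the range of the treated mice, of which mice 5 and 8 are lowest.

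Treated mice 5 and 8, which had the lowest shares, had the most other V gene transcript of their group. The functional heavy chain V genes other than the members summed to 40.9, 13.0, 46.2 and 19.7 CPM in treated mice 5, 7, 8 and 10, and to 188, 97.6, 133 and 205 CPM in control mice 1, 2, 6 and 9. The means were 156 ± 49.5 CPM in controls and 29.9 ± 16.1 CPM in treated mice (SD, n = 4), a ratio of 5.21. The 3 heavy chain members together had 4.58, 3.72, 4.44 and 3.70 CPM in those treated mice, nearly level, and 88.9, 56.0, 54.6 and 50.7 CPM in those controls, a ratio of means of 15.2. The corresponding ratios for kappa were 5.04 for the other V genes and 12.7 for the members. The members were chosen for being lower in treated mice, so their larger ratios and lower shares may follow in part from that choice. The constant genes showed ratios near those of the other V genes, 5.13 for Ighm, the constant region of IgM, and 6.47 for Igkc, the kappa constant region.

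Against the constant gene of their chain the members again took a lower mean part in treated mice. Counts on the heavy chain members were 5.55%, 5.56%, 4.05% and 3.09% of Ighm counts in control mice 1, 2, 6 and 9 and 1.33%, 2.32%, 1.15% and 1.85% in treated mice 5, 7, 8 and 10, without overlap. Counts on the kappa members were 26.2%, 22.2%, 19.1% and 13.2% of Igkc counts in the controls and 9.08%, 16.6%, 5.66% and 16.3% in the treated mice, where the groups overlapped at mouse 9.

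Most other V genes of both chains had smaller fold changes than the members, and a few had larger ones. The members were chosen for their lower levels in treated mice, so this comparison is a description and not a test. Of 28 other heavy chain V genes that passed the filter, 5 had a lower log2 fold change than both VH11 and VH12 genes, down to -5.62 for Ighv5-17. Of 34 other kappa V genes, 7 were lower than Igkv4-91, down to -4.87 for Igkv4-59. These larger changes rest on few treated counts. Treated means were 0.0913 to 0.344 CPM for the 5 and 0.140 to 0.576 CPM for the 7, where 3 counts are 0.165 to 0.219 CPM. The medians over all 28 and 34 others were -2.33 and -2.64, and the groups did not overlap for 12 and 19 of them. Many passed the filter through the control group alone, so these counts and medians are not support for a difference. By edgeR 0 of the other heavy chain V genes and 0 of the other kappa V genes passed an adjusted p of 0.05. At an unadjusted p of 0.05, 19 and 25 were lower, where 1.24% of all genes were. DESeq2 called 11 and 16 of them lower, and 66 of 26057 genes over all.

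**Figure D3:**
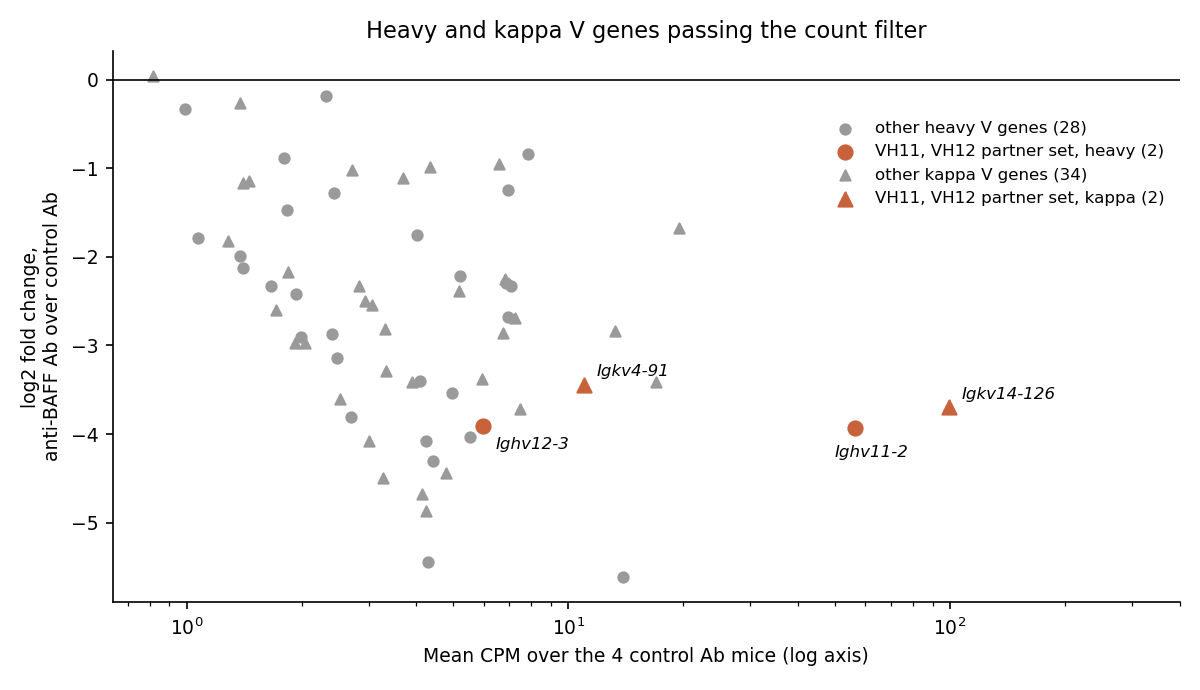
Log2 fold change (anti-BAFF Ab over control Ab) of each heavy chain (circle) and kappa (triangle) V gene that passed the count filter, against its mean CPM in the 4 control Ab mice (log axis), with the tested members in orange. Ighv11-2 (56.5 CPM) and Igkv14-126 (99.7 CPM) stand apart to the right at -3.93 and -3.70. Several grey genes of 3 to 14 CPM lie lower, on few treated counts.

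Within the treated group the VH11 pair had the lowest coefficients of variation among the V genes of their chains that passed the filter. Ighv11-2 had 62, 60, 64 and 57 counts in mice 5, 7, 8 and 10, and its coefficient of variation in CPM was 14.4%, where counting error alone at that depth gives 12.8%. This was the lowest among the 30 heavy chain V genes that passed the filter, and the median of the 28 others was 101%. Igkv14-126 had 145, 121, 103 and 136 counts and a coefficient of variation of 18.4%, against 8.90% from counting error, the lowest of 36 kappa V genes, with a median of 106% for the 34 others. Genes with fewer counts have more counting error, so these ranks compare genes at unequal depth. Ighv1-53, with a treated mean of 4.39 CPM against 3.72 for Ighv11-2, had a coefficient of variation of 93.7%, and Igkv3-2, at 6.19 CPM, one of 90.3%. Ighv6-3, at 1.39 CPM, came close to Ighv11-2 with 19.2%. In control mice the values were 35.7% for Ighv11-2, 31.1% for Igkv14-126, 60.5% for Ighv12-3 and 61.8% for Igkv4-91, against medians of 56.7% and 59.0% for the other heavy chain and kappa V genes.

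The heavy chain and the kappa gene of the VH11 pair stood in the same order in the control mice but not in the treated mice, where mouse 8 was highest for Ighv11-2 and lowest for Igkv14-126. There were 0.597, 0.595, 0.523 and 0.535 Ighv11-2 counts for each Igkv14-126 count in control mice 1, 2, 6 and 9, and 0.428, 0.496, 0.621 and 0.419 in treated mice 5, 7, 8 and 10. The means were 0.562 ± 0.0390 and 0.491 ± 0.0935 (SD, n = 4) and the groups overlapped. Once each group's mean log2 CPM was subtracted, the 8 deviations of the 2 genes had a Pearson r of 0.85 and a Spearman rho of 0.67; without mice 1 and 9, the farthest out, r was 0.43. Of the 36 kappa V genes that passed the filter, Igkv14-126 had the highest r with Ighv11-2, followed by Igkv6-17 at 0.66. Of the 30 heavy chain V genes Ighv11-2 had the highest with Igkv14-126, followed by Ighv8-8 at 0.72. Many of the other genes have fewer counts and so more counting error, so these ranks also compare genes at unequal depth. Within the control group r was 0.98 and within the treated group 0.36.

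Ighv12-3 had 0.317, 0.721, 0.730 and 0.515 counts for each Igkv4-91 count in control mice 1, 2, 6 and 9, and 1.00, 0.375, 0.333 and 0.294 in treated mice 5, 7, 8 and 10. The means were 0.571 ± 0.196 and 0.501 ± 0.335 (SD, n = 4), again overlapping. The deviations had an r of 0.68 and a rho of 0.67, with 0.65 without mice 1 and 9. Igkv4-91 ranked 2 of 36 kappa V genes for Ighv12-3, after Igkv4-72 at 0.85. Ighv12-3 ranked 2 of 30 heavy chain V genes for Igkv4-91, after Ighv14-2 at 0.78. Depth is unequal in these ranks too. Treated mouse 5 was next to the highest of its group for Ighv12-3 and the lowest for Igkv4-91. Between the pairs, r of the deviations was negative for all 4 combinations, from -0.80 to -0.47. For Ighv12-3 with Igkv14-126 this r was -0.033 without mice 1 and 9 and 0.41 within the treated group. Without subtracting the group means, r of log2 CPM over the 8 mice was positive for all 4, from 0.87 to 0.90. The deviations of Ighv11-2 and Ighv12-3 had an r of -0.80 and a rho of -0.86, and r was -0.43 without mice 1 and 9. All of these are descriptions over 8 mice in which both genes of a point come from the same library and depth.

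**Figure D4:**
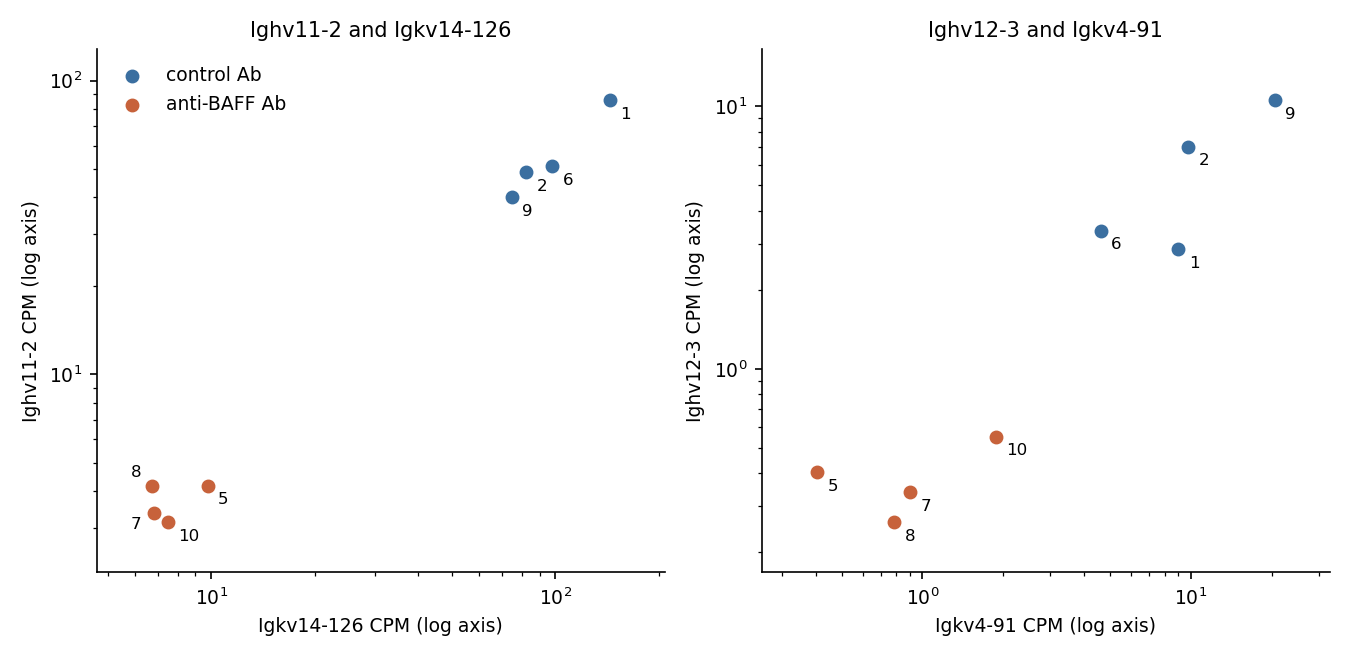
CPM of the heavy chain gene against CPM of its kappa partner (log axes) in each mouse, labelled by mouse number, for Ighv11-2 with Igkv14-126 (left) and Ighv12-3 with Igkv4-91 (right). Mouse 1 is highest for the VH11 pair and mouse 9 for the VH12 pair, and treated mouse 5 (1.00 count of Ighv12-3 for each of Igkv4-91) stands to the left of its group.

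The VH11 pair stood far above its neighbours on the chromosome. Of the VH12 pair, Igkv4-91 stood above its neighbours by less and Ighv12-3 did not. Of the 14 other V genes and V pseudogenes centred within 100 kb of Ighv11-2, 8 had any count, and the highest, Ighv9-3, had 6.95 CPM in controls against 56.5. Around Igkv14-126, 5 of 7 had any count and the highest, Igkv9-124, had 1.06 CPM against 99.7. The neighbours of the VH12 pair were closer to it in level. Ighv6-3 near Ighv12-3 had 6.86 CPM in controls against 5.96, and Igkv10-94 near Igkv4-91 had 5.93 against 11.0. Of the family of Igkv14-126 only Igkv14-111 passed the filter among 7 other genes, at 3.70 CPM in controls. The family of Igkv4-91 holds 32 other genes with 2032 counts in controls against its own 705, and reads that fit several of them may have been divided in a way that the sources used here do not state, so its level is uncertain.

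**Figure D5:**
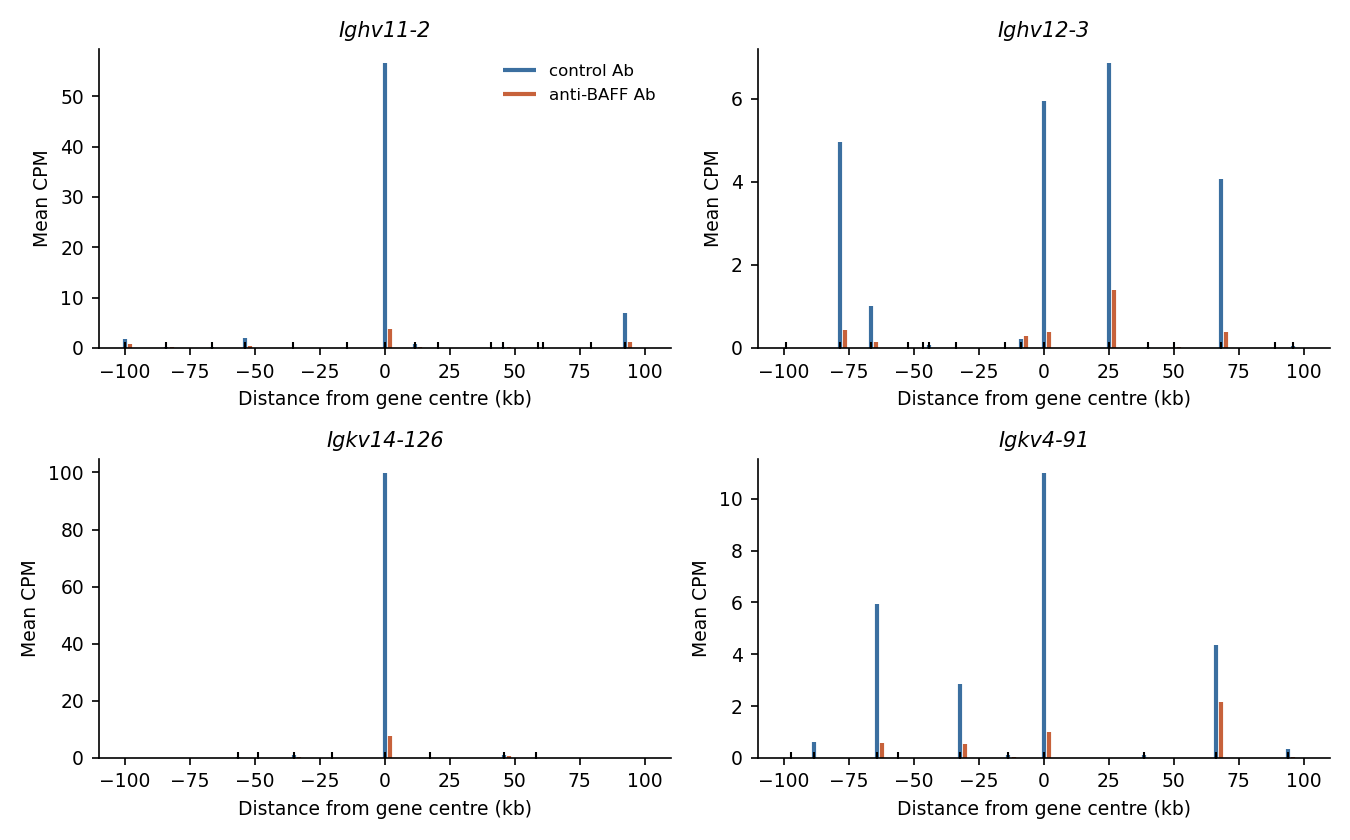
Mean CPM of V genes and V pseudogenes by distance in kilobases from the centre of each member, in control Ab (blue) and anti-BAFF Ab mice (orange, drawn 2 kb to the right); black ticks mark every annotated V gene, and the vertical scales differ. Ighv11-2 (56.5 CPM) and Igkv14-126 (99.7 CPM) rise alone above their neighbours. Igkv4-91 (11.0 CPM) is the highest of its stretch by less, and Ighv12-3 (5.96 CPM) is not the highest of its own.

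The genes whose log2 CPM was most like that of Ighv11-2 over the 8 mice, members aside, were Ighv8-8 (r 0.96), Ighm (0.95), Ighv7-3 (0.95), Pax5 (0.95) and Pou2af1 (0.95), of 15959 genes. For Igkv14-126 they were Ighv8-8 (0.96), Pax5 (0.95), Ighm (0.95), A430033K04Rik (0.95) and Cr2 (0.94). Pax5 and Pou2af1 are a transcription factor and a coactivator of B cells, and Cr2 is complement receptor 2. For Ighv12-3 the most alike was Igkv4-72 (0.98) and for Igkv4-91 it was Gm5113 (0.96), with the lambda genes Iglc2 and Iglv2 among the 5 most alike for both. These values follow the difference between the groups and the mouse order together.

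Among other B lineage genes, the calls lay on the antibody's constant regions and on secretion and transcription partners. Of 11 immunoglobulin constant genes tested, 3 were lower at an adjusted p of 0.05 by edgeR's quasi-likelihood test. Ighm had 1603, 1007, 1348 and 1642 CPM in control mice 1, 2, 6 and 9 and 345, 160, 387 and 200 CPM in treated mice 5, 7, 8 and 10, a log2 fold change of -2.36 (SE 0.30, adjusted p = 0.045). Igkc (-2.69, adjusted p = 0.045) and the lambda constant gene Iglc2 (-3.26, adjusted p = 0.045) were the others. The remaining constant genes did not pass, with log2 fold changes from -3.15 for Ighg3 to -1.26 for Ighg2b. The value for Ighg3 rested on control mouse 9, at 37.8 CPM. The other controls had 1.32 to 2.92 CPM and treated mouse 5 had 2.76 CPM, so the groups overlapped. Of the 11 constant genes, 10 were lower at an unadjusted p of 0.05. The median over the list was -2.15, beside 0.00 over all genes tested. Mice 8 and 5 were above mice 10 and 7 among treated mice for Ighm, for the other heavy chain V genes and for Ighv11-2, whereas mouse 8 was lowest for Igkv14-126.

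Of 10 plasma cell genes 1 was lower, Jchain, which joins IgM and IgA into polymers, at 127 ± 37.0 and 18.7 ± 8.68 CPM (SD, n = 4; log2 fold change -2.77, adjusted p = 0.045). Xbp1, Sdc1, Txndc5 and Edem1, which other secretory and stromal cells also express, had log2 fold changes between -0.02 and 0.02, and the list's median was -0.04. Of 16 pan-B cell genes 1 was lower, Pou2af1 (8.34 ± 0.816 and 2.12 ± 0.701 CPM; log2 fold change -1.98, adjusted p = 0.045), and the list's median was -0.73. Pax5 (-1.53, adjusted p = 0.14) and Cd79a (-1.77, adjusted p = 0.23) did not pass by edgeR, and DESeq2 called 7 of the 16 lower. Ms4a1, which encodes CD20, had 6.98 ± 0.313 and 2.97 ± 1.46 CPM (log2 fold change -1.24, adjusted p = 1.00). Cd37, Blnk and Btk, the most abundant pan-B cell genes in this tissue, had log2 fold changes between -0.01 and 0.15, and 13 of the 16 were below 0. The 5 calls among the constant, plasma cell and pan-B cell genes were lost in most refits. Between 0 and 2 genes of the lists passed with any of the 8 mice left out, 0 passed with the robust option and 0 without mice 2 and 7.

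Of 15 genes described for B-1 cells, edgeR called 0 lower, 2 were lower at an unadjusted p of 0.05 and DESeq2 called 0. The 2 were Siglecg, an inhibitory receptor (4.73 ± 0.560 and 2.88 ± 0.486 CPM; log2 fold change -0.71, adjusted p = 1.00), and Il5ra, a receptor chain for interleukin 5 (1.36 ± 0.331 and 0.706 ± 0.124 CPM; log2 fold change -0.93, adjusted p = 1.00). Cd5, which marks B-1a cells and T cells, had 5.49 ± 0.960 and 4.01 ± 1.15 CPM (log2 fold change -0.45, adjusted p = 1.00), and the median over the list was 0.03. Cd9, Nfatc1, Ahr and Plscr1, the list's most abundant members in this tissue, are expressed by many other cells and had log2 fold changes between 0.03 and 0.17. Of 12 follicular and marginal zone genes edgeR called 0, 5 were lower at an unadjusted p of 0.05 and DESeq2 called 3. Among them Fcer2a, which encodes CD23, had 2.79, 1.89, 1.68 and 2.23 CPM in control mice 1, 2, 6 and 9 and 0.673, 0.338, 0 and 0.110 CPM in treated mice 5, 7, 8 and 10 (log2 fold change -2.93, adjusted p = 0.54), and Cr2 had 1.20 ± 0.266 and 0.192 ± 0.189 CPM (-2.65, adjusted p = 0.32). Mzb1, whose name refers to marginal zone and B-1 cells, was counted in this list only. It had 6.11 ± 1.13 and 1.46 ± 0.821 CPM (-2.07, adjusted p = 0.19 by edgeR) and was lower by DESeq2 (adjusted p = 1.0e-05). No gene of these 5 lists was higher by edgeR at either threshold; over all genes 0% were higher at an adjusted p of 0.05, with 106 genes higher at an unadjusted p of 0.05 and 4 by DESeq2.

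The libraries held 13562340 to 18548024 counts, at which 3 counts are 0.165 to 0.219 CPM. Of the markers of other cells in 9 lists edgeR called 0 and DESeq2 0, with 1, the neutrophil gene S100a9, higher at an unadjusted p of 0.05. S100a9 was high in treated mouse 5 only, at 42.3 CPM. The other treated mice had 1.29 to 3.78 CPM and the controls 1.18 to 4.34 CPM. Among the lists were T cell markers (summed 39.5 to 61.9 CPM in controls and 37.7 to 57.2 in treated mice) and large peritoneal macrophage markers (4781 to 5469 and 4593 to 5662 CPM). Epididymis genes, from tissue that adjoins the male gonadal fat pad, ranged from 12.6 to 1566 CPM in controls and from 56.5 to 1627 in treated mice and were highest in mice 2 and 7. Without those mice the log2 fold changes were -3.96 for Ighv11-2, -3.77 for Ighv12-3, -3.74 for Igkv14-126 and -3.46 for Igkv4-91. Whether mice shared a cage or a library preparation batch is not stated in the sources used here.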

How the data were processed

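RNA from the gonadal SVF of 8 mice, 1 library per mouse, was sequenced for the authors by a service laboratory (paired-end, NovaSeq 6000). The authors deposited raw counts per gene, 1 column per mouse, with coordinates, biotypes and a gene length, here the other value of the deposited table, used only for values per kilobase. The submitters' notes name the build mm10, and the aligner, the counting tool, its treatment of strand and of reads that fit several genes, and the annotation release are not given in the sources used here. The study's own expression unit was FPKM, with a threshold of 0.05 on adjusted p. The counts were tested as deposited. Groups and mouse numbers were taken from the labels, and no source says whether mice shared a cage or batch.

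The 15963 genes passing filterByExpr (minimum count 10) were fitted with edgeR 4.0.16 in R 4.3.3 (TMM, quasi-likelihood test, treatment as the only term), with Benjamini-Hochberg adjustment over all of them. Each standard error is the log2 fold change divided by the square root of its F value. Log2 CPM for correlations used a prior count of 2. The fit was tested on simulated data. Shares were taken over V genes with a functional biotype (113 heavy chain, 100 kappa), with exact binomial intervals from scipy 1.17.1. No 2 mice of a group were the same library, since the smallest chi-square per gene between them was 7.91. DESeq2 1.42.0, RLE factors, plain library sizes, no filter, the robust option, other denominators and leaving out each mouse were alternatives. The fit without mice 2 and 7 was added after seeing the data.

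The members and gene lists were chosen with earlier results of these data known. The text names the 5 members, B lineage genes past the threshold or abundant in their list, the V genes leading each chain and the 5 genes most like a member. Genes named for their fold change or spread (Ighv5-17, Igkv4-59, Ighv1-53, Ighv6-3), as neighbours or as closest partners were named after their values were seen. So were Cd79a, Pax5, Siglecg, Il5ra, Cd5, Fcer2a, Cr2, Mzb1 and S100a9.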

Additional observations from a re-analysis of the deposited data

Results flagged for a closer look

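Among 70 groups of 4 values, 8 had a highest or lowest value that passed the 95% limit of Dixon's ratio for outlying values, where chance gives about 1 in 20. For the members, treated mouse 5 had 1.00 Ighv12-3 count for each Igkv4-91 count (6 counts of each), while the other treated mice had 0.294 to 0.375. Control mouse 1 had 88.9 CPM on the heavy chain members, and the other controls had 50.7 to 56.0. Mouse 1 was also the highest control for Blnk (128 CPM), Btk (48.9 CPM) and Edem1 (233 CPM), genes that myeloid or secretory cells express too. Among treated mice, mouse 5 was highest for Bach2 (11.8 CPM) and Edem1 (199 CPM), and mouse 10 was lowest for Pou2f2 (13.5 CPM). The causes were not tested.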

How the results depend on the processing

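The log2 fold changes of the 4 tested members moved by less than the spread between mice under RLE factors, plain library sizes, DESeq2 and no filter. With 1 mouse left out they ranged from -4.06 to -3.67 for Ighv11-2, from -4.16 to -3.47 for Ighv12-3, from -3.84 to -3.48 for Igkv14-126 and from -3.95 to -2.95 for Igkv4-91. The difference in share (treated minus control) was -15.2 percentage points for the heavy chain members, from -18.3 to -12.8 with 1 mouse left out, and -15.2 for the kappa members, from -18.9 to -11.6. Taken over Ighm counts in place of V counts, the heavy chain difference was -2.90, a smaller number because Ighm counts outnumber heavy chain V counts. The ratio of the VH11 pair differed by -0.071 between the groups, from -0.11 to -0.048 with 1 mouse left out, and that of the VH12 pair by -0.070, from -0.24 to -0.0015.

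The count of genes lower at an adjusted p of 0.05, 9 in edgeR's main setting, depended on the setting. It was 66 with DESeq2, whose own filter left 26057 genes with an adjusted p, so that test and filter changed together. It was 19 with no filter, 2 with the robust option, 3 without mice 2 and 7, and from 2 to 9 with 1 mouse left out. Of B lineage list genes 5 were lower, with 17 by DESeq2, 0 with the robust option, 0 without mice 2 and 7, and 0 to 2 with 1 mouse left out. The causes were not tested. Where only 2 genes passed, they were Ighv11-2 and Igkv14-126. The contrast chose these members, so nothing is read from their calls. No paired analysis was possible because the mouse numbers differ between the groups. Depth limits Ighv12-3 and Igkv4-91 in treated mice, with 4 to 34 counts, and leaves Ighv11-1 without a measurable level.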
